A study of Mus musculus with 48 samples.

Results

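The step of pOVA dose from 1 to 10 nM, the lowest step at which limma called genes of the DO11.10 T hybridoma, was followed through 4 libraries without PD-1 engagement, 2 at 10 nM and 2 at 1 nM. They were picked by their labels, from 26 hybridoma libraries and 48 libraries in the whole series. The comparison itself was chosen with earlier results of these data known. DO11.10 is a mouse T cell line of mixed BALB/c x AKR/J strain, made by fusing T cells with a lymphoma, and pOVA is the ovalbumin peptide that its T cell receptor recognises. A further 4 libraries received the same doses, 10 nM (n = 2) and 1 nM (n = 2), with PD-1 engagement, and the groups at 0, 100, 1000 and 10000 nM, with and without engagement, gave the rest of the dose series (2 libraries each, and 3 at 10000 nM). Transcription was measured by CAGE (cap analysis of gene expression), which sequences a tag from the 5′ end of each capped RNA of a total RNA sample. The values are RPM, tags scaled to the library total, per tag cluster, a short stretch of start sites on 1 strand, summed here per gene symbol.

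As a model these libraries are limited to 1 cell line. How PD-1 was engaged, how long the cells were stimulated, and whether the replicates were separate cultures are not given in the labels, so p-values measure the spread between these libraries, which may be technical. In bulk RNA, a larger share of responding cells and more RNA per cell cannot be told apart.

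When a T cell receptor binds its peptide, kinases at the membrane start the MAP kinase, calcium and NF-kB pathways, and immediate early genes are transcribed within minutes without new protein synthesis. Among them are the EGR zinc finger factors, whose promoters are classical targets of SRF and its ternary complex partners downstream of ERK, and the orphan nuclear receptor Nr4a1 (Nur77), widely used as a reporter of antigen receptor signal. PD-1 is an inhibitory receptor that recruits the phosphatase SHP-2 and dampens signalling close to the receptor.

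The 4 libraries held 13.4 to 17.9 M tags (7.79 to 19.7 M over all hybridoma libraries), so that 3 tags, used as the floor of detection, were worth 0.168 to 0.224 RPM in each of them; such limits cover counting error only. Summed over 9 of the 10 T cell markers listed (Cd4 had no cluster in the table), they held 2229 and 2096 RPM at 10 nM, against 2232 and 2039 RPM at 1 nM. Markers of B cells, the cells commonly used to present peptide, were also present: summed over 10 markers they reached 68.1 and 88.9 RPM at 10 nM, against 68.7 and 73.0 RPM at 1 nM. Under engagement the B cell sums were 102 and 115 RPM at 10 nM, against 64.5 and 72.2 RPM at 1 nM, and their part in the engaged step was not tested. Of the unstimulated libraries, replicate 2 stood apart, with 601 RPM of B cell markers without engagement and 532 RPM with it, against 53.9 and 144 RPM in replicate 1. Of 8 myeloid and 7 cytotoxic or NK markers, 1 each was in the table: Cst3, which T cells also express, and Gzma.

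A 10-fold higher dose of peptide raised a small set of genes. With limma on log2(RPM + 1), 6 of 10094 genes were higher at 10 nM (0.0594%, Benjamini-Hochberg adjusted p under 0.05) and 0 were lower, while 158 passed an unadjusted p under 0.05, 95 of them higher (0.941%) and 63 lower (0.624%). The 6 were Egr1, Egr2, Egr3, Nab2, Nr4a1 and Tnfrsf9, and the median log2 difference over all genes tested was 0.0076. The edgeR quasi-likelihood test on whole tags called 9 genes higher (0.0892%) and 1 lower (0.00991%), 10 in all (0.0991%). DESeq2 called 10 higher (0.0992%) and 7 lower (0.0694%) of 10084 genes, 17 in all (0.169%). Both tools called the 6 genes and added Cd69, Ier2 and Obfc2a, and DESeq2 also added Trib1. A limma fit to the 4 libraries alone called 9 higher (0.0892%) and 4 lower (0.0396%), 13 in all (0.129%), the 6 genes among them.

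**Figure D1:**
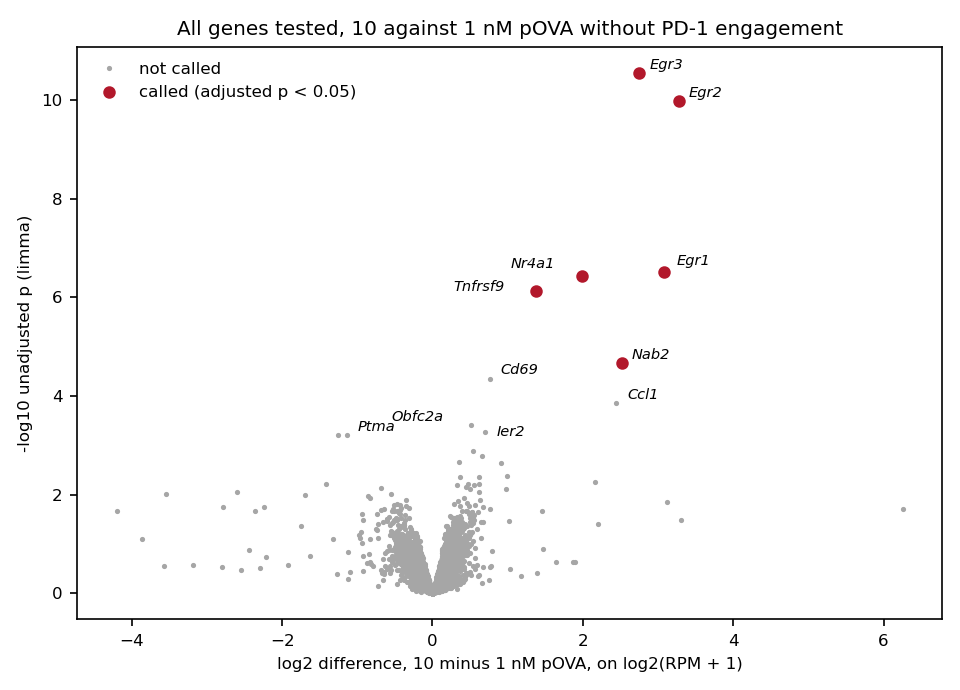
Each point is 1 of the 10094 genes tested, with the log2 difference of 10 minus 1 nM on the x axis and the negative log10 of the unadjusted limma p on the y axis. The 6 called genes (filled) lie to the upper right, at log2 differences of 1.38 to 3.27, and Cd69 and Ccl1 are the next in p; names of uncalled genes were placed for the 5 that follow by p and have a protein-coding symbol.

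The 3 EGR family members in the table all rose, and on the log2 scale they led the 6 called genes. Egr1, the founding member of the family and a classical ERK target, had 57.1 and 56.3 RPM at 10 nM, against 6.26 and 5.38 RPM at 1 nM. The levels of Egr2, which in T cells is linked to anergy and tolerance, were 11.2 and 12.2 RPM at 10 nM, against 0.44 and 0.20 RPM at 1 nM. For Egr3, which shares targets with Egr2, the 2 libraries at 10 nM gave 7.72 and 7.44 RPM, against 0.22 and 0.33 RPM at 1 nM. In each of the 3 genes both libraries at 10 nM lay far above both at 1 nM, and at 1 nM Egr2 and Egr3 rested on 3 to 6 tags per library. On the ratio of mean RPM, Egr1 was 9.74-fold, Egr2 36.6-fold and Egr3 27.6-fold higher, but the last 2 ratios have a denominator near the floor. Without antigen Egr2 was at 2.04 and 2.12 RPM and Egr3 at 0.74 and 0.59 RPM, above their levels at 1 nM. On the log2(RPM + 1) scale, which understates the change of such low genes, Egr1 rose by 3.08 (SE 0.398, adjusted p = 9.36e-04), Egr2 by 3.27 (SE 0.255, adjusted p = 5.31e-07) and Egr3 by 2.75 (SE 0.198, adjusted p = 2.83e-07). The fourth member, Egr4, had no cluster with its symbol in the table.

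Nab2, a corepressor that binds EGR proteins and is itself an EGR target, moved with them. It had 13.1 and 12.4 RPM at 10 nM, against 1.64 and 1.18 RPM at 1 nM, a 9.02-fold difference of the means. Its log2 rise of 2.52 (SE 0.447) passed the limma test with an adjusted p of 0.0360, within a range of 7.41e-06 to 0.568 over 16 alternatives. The unstimulated libraries, which share in the estimate of the spread, gave 0.46 and 4.72 RPM, and the call was lost when any 1 of the 4 libraries was left out (adjusted p = 0.173 to 0.568) or a pseudocount of 0.25 was used (adjusted p = 0.130).

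Nr4a1 was the most abundant of the 6. Its levels were 82.6 and 80.5 RPM at 10 nM, against 25.1 and 15.7 RPM at 1 nM, with no overlap, although the libraries at 1 nM differed more from each other than those at 10 nM. The means differed 4.01-fold, a log2 rise of 1.99 (SE 0.260, adjusted p = 9.36e-04). Without antigen Nr4a1 was at 28.1 and 43.8 RPM, so its level at 1 nM was not above that at 0 nM. Its relative Nr4a3 had 4.18 and 3.30 RPM at 10 nM, against 2.08 and 2.37 RPM at 1 nM, a log2 difference of 0.55 (adjusted p = 1), and Nr4a2 had no cluster with its symbol in the table.

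Tnfrsf9 encodes CD137, a costimulatory receptor of the TNF receptor family that appears on activated T cells, and was the 1 called gene that is not a transcriptional regulator. It had 5.76 and 7.21 RPM at 10 nM, against 2.01 and 1.71 RPM at 1 nM. The difference was 3.49-fold on the means and 1.38 on the log2 scale (SE 0.190, adjusted p = 0.00149). Its levels without antigen, 2.41 and 3.30 RPM, lay above those at 1 nM. Without replicate 2 at 10 nM the log2 difference was 1.24 and no longer called (adjusted p = 0.0949, the highest of 16 alternatives, against 9.46e-09 for the lowest).

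**Figure D2:**
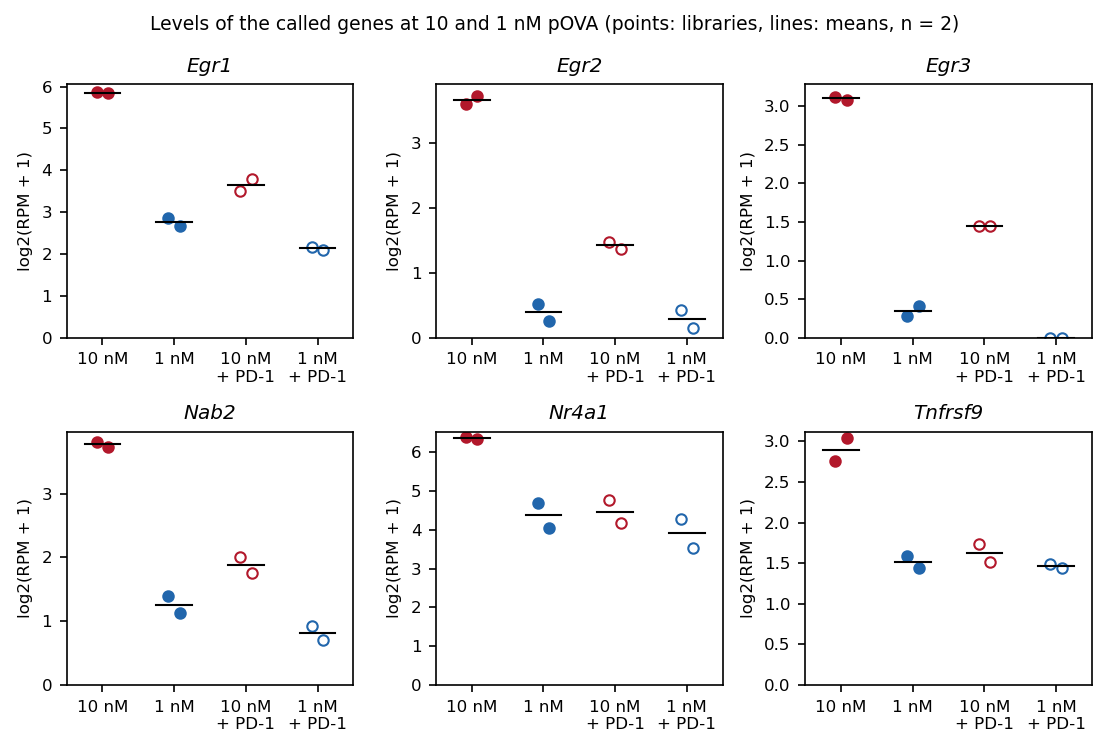
Levels of the 6 called genes as log2(RPM + 1) in 8 libraries: 10 nM and 1 nM without PD-1 engagement (filled points) and the same doses with engagement (open points), with lines at the mean of 2 libraries. Without engagement both 10 nM points lie above both 1 nM points in every panel, and the engaged 10 nM points lie lower, with Egr1 at 10.4 and 12.8 RPM under engagement, against 57.1 and 56.3 RPM without.

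Since CAGE tags mark the start of a transcript, each rise could be placed at a start site. Of 18014 tag clusters tested, 8 were higher at 10 nM (0.0444%) and 0 were lower, with 477 at an unadjusted p under 0.05. Of the 8, 6 carried the symbol of a called gene and 2 carried none. Coordinates of clusters are those of the deposited mm9 table. Egr2 used a 4-base cluster on the plus strand at chr10:67000614-67000617, which had 10.9 and 12.02 RPM at 10 nM, against 0.37 and 0.20 RPM at 1 nM. A minor Egr2 cluster upstream, at chr10:67000287-67000324, had 0.25 and 0.22 RPM at 10 nM, against 0.07 and 0 RPM at 1 nM, and was not called. Egr3 had 1 cluster (chr14:70476719-70476722, plus strand), Nr4a1 was called at chr15:101097276-101097283 (plus strand), and Egr1 at chr18:35020858-35020861 (plus strand). The main Nab2 cluster (chr10:127103613-127103732, minus strand) had 12.8 and 12.1 RPM at 10 nM, against 1.64 and 1.18 RPM at 1 nM, and fell short of the threshold among clusters (adjusted p = 0.0562).

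Tnfrsf9 had 4 clusters, against 1 or 2 for the other called genes, and 2 of the 4 were called. The cluster farthest upstream, chr4:150288697-150288799 on the plus strand, had 1.01 and 1.17 RPM at 10 nM, against 1.04 and 0.92 RPM at 1 nM, and was not called. The called clusters lie further downstream. The cluster at chr4:150294275-150294299 had 1.14 and 1.79 RPM at 10 nM, against 0 and 0.13 RPM at 1 nM (log2 difference 1.201, adjusted p = 0.0345), and the one at chr4:150302125-150302138 had 3.61 and 4.03 RPM at 10 nM, against 0.97 and 0.59 RPM at 1 nM (log2 difference 1.44, adjusted p = 0.0307). Whether the starts of Tnfrsf9 differed from each other in their response was not tested.

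**Figure D3:**
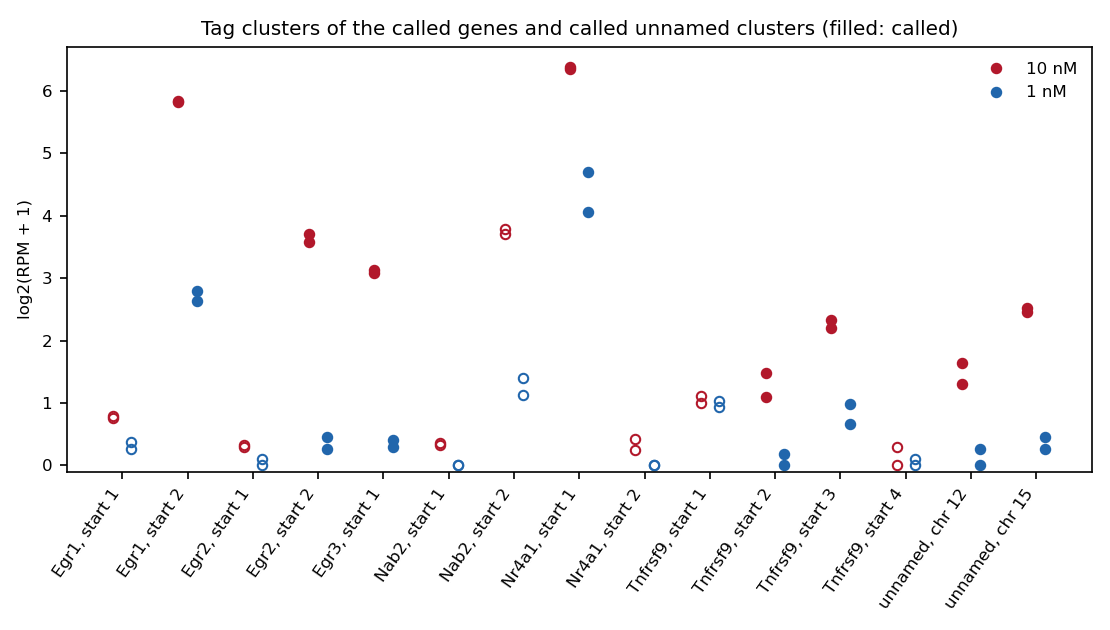
Tag clusters of the 6 called genes, numbered per gene by rising coordinate, and the 2 called clusters without a symbol, as log2(RPM + 1) in the 2 libraries at 10 nM and the 2 at 1 nM; filled points mark clusters called at an adjusted p under 0.05. Tnfrsf9 start 1 has 1.01 and 1.17 RPM at 10 nM, against 1.04 and 0.92 RPM at 1 nM, while starts 2 and 3 are higher at 10 nM.

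The promoters of 3 called genes with a called start site are shown. They are RefSeq windows of GRCm38.p6, another build than that of the clusters, and cover the 250 bases before an annotated start; 4 of the 6 called genes had such a window (Egr2, Nab2, Nr4a1 and Tnfrsf9). For Egr2, the window belongs to a RefSeq start 303 bases after another, and the 2 Egr2 clusters lie 290 to 330 bases apart. For Tnfrsf9, the window belongs to the later of 2 RefSeq starts 7844 bases apart, and the 2 called clusters lie 7826 to 7863 bases apart. Nr4a1 had 1 RefSeq window, so spacing could not tie it to the called cluster. Capitals mark matches, on either strand, to 5 motifs: the EGR motif GCGNGGGCG, the cAMP response element TGACGTCA, the AP-1 motif TGANTCA, the SRF-binding CArG box, and TGCGTCA, an AP-1-like and CRE-like motif that was added after the windows had been read.
Egr2, chr10:67537619-67537868, plus strand: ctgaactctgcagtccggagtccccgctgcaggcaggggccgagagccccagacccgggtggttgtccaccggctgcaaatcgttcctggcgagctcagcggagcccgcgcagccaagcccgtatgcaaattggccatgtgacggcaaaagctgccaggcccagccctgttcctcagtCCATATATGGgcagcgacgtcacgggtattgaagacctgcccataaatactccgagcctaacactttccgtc
Nr4a1, chr15:101266596-101266845, plus strand: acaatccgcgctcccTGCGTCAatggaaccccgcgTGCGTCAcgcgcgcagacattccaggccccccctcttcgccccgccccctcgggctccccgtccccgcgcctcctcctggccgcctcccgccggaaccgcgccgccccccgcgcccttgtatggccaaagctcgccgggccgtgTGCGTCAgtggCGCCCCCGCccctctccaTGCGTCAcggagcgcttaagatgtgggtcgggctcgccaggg
Tnfrsf9, chr4:150927749-150927998, plus strand: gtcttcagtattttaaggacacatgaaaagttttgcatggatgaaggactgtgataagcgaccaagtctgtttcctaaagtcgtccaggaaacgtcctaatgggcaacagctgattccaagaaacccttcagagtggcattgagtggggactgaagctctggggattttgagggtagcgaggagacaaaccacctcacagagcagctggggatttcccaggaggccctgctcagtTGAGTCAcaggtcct

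The Egr2 window held 1 match, a CArG box that begins 72 bases before the start, and 1.47% of the 32851 RefSeq windows of this length hold a CArG box. The Nr4a1 window held 4 copies of TGCGTCA, the nearest beginning 42 bases before the start, where 1.75% of windows hold any, and 1 EGR motif on the minus strand (4.7% of windows). In the Tnfrsf9 window, 1 AP-1 motif began 15 bases before the start (6.75% of windows). The letters of TGACGTCA, held by 1.55% of windows, were in none of the 9 windows of the 4 genes, and none of the 5 motifs matched in the window of Nab2 or in that of the earlier Tnfrsf9 start. These matches describe the letters of the windows and are not evidence of binding.

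Of the 2 called clusters without a symbol, the larger lies on chromosome 15 (chr15:59973458-59973461, plus strand), 493189 bases after the nearest named cluster, that of Trib1, and 1843640 bases before that of Myc. It had 4.74 and 4.47 RPM at 10 nM, against 0.37 and 0.20 RPM at 1 nM, a log2 rise of 2.13 (SE 0.167, adjusted p = 7.70e-07). Its levels without antigen, 1.21 and 0.88 RPM, lay above those at 1 nM. At 10000 nM it reached 153 ± 14.8 RPM (SD, n = 3). It opens a run of 30 clusters without a symbol over 19937 bases, each within 5000 bases of the next, 26 of them on the plus strand. Summed over the run, the level was 11.2 and 15.5 RPM at 10 nM, against 1.99 and 2.11 RPM at 1 nM, and 465 to 617 RPM at 10000 nM. In 14 of the other 29, both libraries at 10 nM lay above both at 1 nM, against 13.3% of all tag clusters, but the run was itself located through a cluster called at this step. Trib1 itself, a pseudokinase gene, had 7.78 and 7.05 RPM at 10 nM, against 3.95 and 2.62 RPM at 1 nM, and was not called by limma (log2 difference 0.99, adjusted p = 1). The other cluster, chr12:111631791-111631906 on the minus strand, lies 53401 bases before the nearest named cluster by coordinate, of Ppp2r5c. Its 1.46 and 2.13 RPM at 10 nM stood against 0 and 0.20 RPM at 1 nM (log2 rise 1.34, SE 0.179, adjusted p = 0.00152), and it averaged 63.6 ± 4.13 RPM at 10000 nM (SD, n = 3).

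Several known activation genes came next by p without passing the limma test. Cd69, an early activation marker that retains lymphocytes in tissue, had 24.3 and 25.4 RPM at 10 nM, against 15.1 and 13.3 RPM at 1 nM, a log2 difference of 0.77 (SE 0.145, adjusted p = 0.0640). Ccl1, a chemokine ligand of CCR8, had 9.74 and 11.4 RPM at 10 nM, against 1.49 and 0.79 RPM at 1 nM (log2 difference 2.45, SE 0.514, adjusted p = 0.179). Its unstimulated libraries held 8.35 and 0.24 RPM, and the difference was called in the fit without the 0 nM libraries (adjusted p = 1.12e-06), where Cd69 was called too (adjusted p = 0.0371). Over 16 alternatives the adjusted p ran from 1.12e-06 to 1 for Ccl1 and from 0.00134 to 1 for Cd69. Obfc2a, which encodes a single-stranded DNA-binding protein, had 204 and 189 RPM at 10 nM, against 147 and 129 RPM at 1 nM (log2 difference 0.51, adjusted p = 0.432). Without antigen Obfc2a had 157 and 176 RPM and Cd69 15.4 and 19.9 RPM, above their levels at 1 nM. Ier2, an immediate early gene, had 26.5 and 29.5 RPM at 10 nM, against 18.5 and 15.5 RPM at 1 nM (log2 difference 0.69, adjusted p = 0.534). Ddc, the gene of an enzyme that makes dopamine and serotonin, and the adaptor gene Samsn1 completed the 12 genes of smallest p that the naming rule takes, at log2 differences of 0.54 and 0.35 (adjusted p = 1 for both). These 12, the 6 called genes included, have the smallest p among the higher genes that the naming rule admits out of 10094. The values of the 6 uncalled ones therefore serve as ranks.

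Of the 6 called genes, 5 stood in the gene lists, and Nab2 was in none. Of 22 tested immediate early transcription factor genes, 4 were called higher (Egr1, Egr2, Egr3 and Nr4a1) and 0 lower. Over all genes 0.0594% were called higher and 0% lower. The median log2 difference of the 22 was 0.23, against 0.0076 over all genes. In 8 of the 22, the 4 called genes among them, both libraries at 10 nM lay above both at 1 nM, against 12.9% of all genes. In 0 the reverse was true, against 12.8%. Such a share was not particular to this list. It held for 7 of 13 MAP kinase feedback genes (reverse in 0), 8 of 15 NF-kB pathway genes (reverse in 1) and 5 of 10 cytokine genes (reverse in 1). It also held for 4 of 10 B cell markers (reverse in 0), but for 2 of 11 NFAT and calcium entry genes (reverse in 4). The AP-1 genes of the list were not called: Fos had 1.2 and 1.34 RPM at 10 nM, against 1.34 and 0.59 RPM at 1 nM, and Junb had 62.8 and 44.0 RPM at 10 nM, against 40.6 and 32.2 RPM at 1 nM. Myc had 69.3 and 76.4 RPM at 10 nM, against 77.8 and 61.4 RPM at 1 nM, and overlapped.

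Among 13 activation surface molecules Tnfrsf9 was called, against 0.0594% of all genes, and the median was 0.22. Cd28, the main costimulatory receptor of naive T cells, had 21.6 and 18.7 RPM at 10 nM, against 13.04 and 12.39 RPM at 1 nM (log2 difference 0.62, adjusted p = 1). Fasl, the ligand of the death receptor Fas, had 0.32 and 0.89 RPM at 10 nM and 0 in both libraries at 1 nM, which makes it at least 2.88-fold higher against a floor of 3 tags per library. It was not called (adjusted p = 1), and of 16 alternatives, whose adjusted p ran from 0.0279 to 1, the pseudocount of 0.25 alone called it.

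Feedback, NF-kB, cytokine and chemokine genes had 0 calls, where 0.0594% of all genes were called. At that share, few or no calls would fall in lists this short. In the list of 13 MAP kinase feedback genes (the DUSP phosphatases, Sprouty and Spred genes and RGS genes) the median was 0.086, with Dusp4, a nuclear MAP kinase phosphatase, at 15.8 and 11.7 RPM at 10 nM, against 10.1 and 8.52 RPM at 1 nM. For 15 NF-kB pathway genes the median was 0.15, with Nfkbid, a nuclear IkB protein gene, at 17.5 and 13.8 RPM at 10 nM, against 12.1 and 9.77 RPM at 1 nM. The 10 cytokine genes had a median of 0.19: Tnf had 25.6 and 31.7 RPM at 10 nM, against 18.5 and 20.5 RPM at 1 nM, while Il2, which reached 9.11 ± 1.23 RPM at 10000 nM (SD, n = 3), was listed at 0 in all 4 libraries. Of 4 chemokine genes tested, Xcl1 had 0 and 0.06 RPM at 10 nM, against 0.07 and 0.07 RPM at 1 nM. Both groups of Xcl1 were under the floor.

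The 6 inhibitory receptors and ligands tested had a median of 0.32, all with positive differences and none called. Pdcd1, which encodes PD-1 itself, had 80.9 and 61.4 RPM at 10 nM, against 57.6 and 43.4 RPM at 1 nM (log2 difference 0.49, adjusted p = 1), and Cd274, which encodes its ligand PD-L1, had 6.83 and 11.6 RPM at 10 nM, against 6.63 and 6.30 RPM at 1 nM. Cd200r1 had 15.6 and 15.2 RPM at 10 nM, against 10.9 and 10.4 RPM at 1 nM. Over the dose series it went the other way from Pdcd1 and Cd274. Its mean was 12.9 RPM at 0 nM, 10.7 RPM at 100 nM, 3.28 RPM at 1000 nM and 2.54 RPM at 10000 nM. At 10000 nM Pdcd1 averaged 214 RPM and Cd274 82.2 RPM.

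Genes that carry the signal from the receptor had 0 calls, where 0.0594% of all genes were called. Lists this short would hold few or no calls at that share. The 13 tested genes of the T cell receptor and proximal signalling had a median of -0.017, 11 NFAT and calcium entry genes -0.082, and 6 genes of SRF and its cofactors 0.12. Members went both ways: 6 of the 13 receptor and proximal signalling genes and 4 of the 11 NFAT and calcium entry genes had positive differences. Lcp2, the adaptor SLP-76, had 66.4 and 60.0 RPM at 10 nM, against 51.9 and 45.6 RPM at 1 nM (log2 difference 0.37, adjusted p = 1). Plcg1 was lower, with 24.6 and 25.3 RPM at 10 nM, against 32.9 and 29.3 RPM at 1 nM. Rcan1, of the NFAT list, was lower too, with 7.09 and 5.65 RPM at 10 nM, against 9.17 and 8.46 RPM at 1 nM. The other lists, 9 effector transcription factors, 11 anergy and signal brake genes, 6 RNA decay regulators, 10 resting and naive genes, 17 ribosome biogenesis genes, 20 cell cycle genes, 9 heat shock genes and 6 interferon-stimulated genes, had 0 calls and medians between -0.024 and 0.087. B cell markers (10 tested) had a median of 0.12 and 0 calls.

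**Figure D4:**
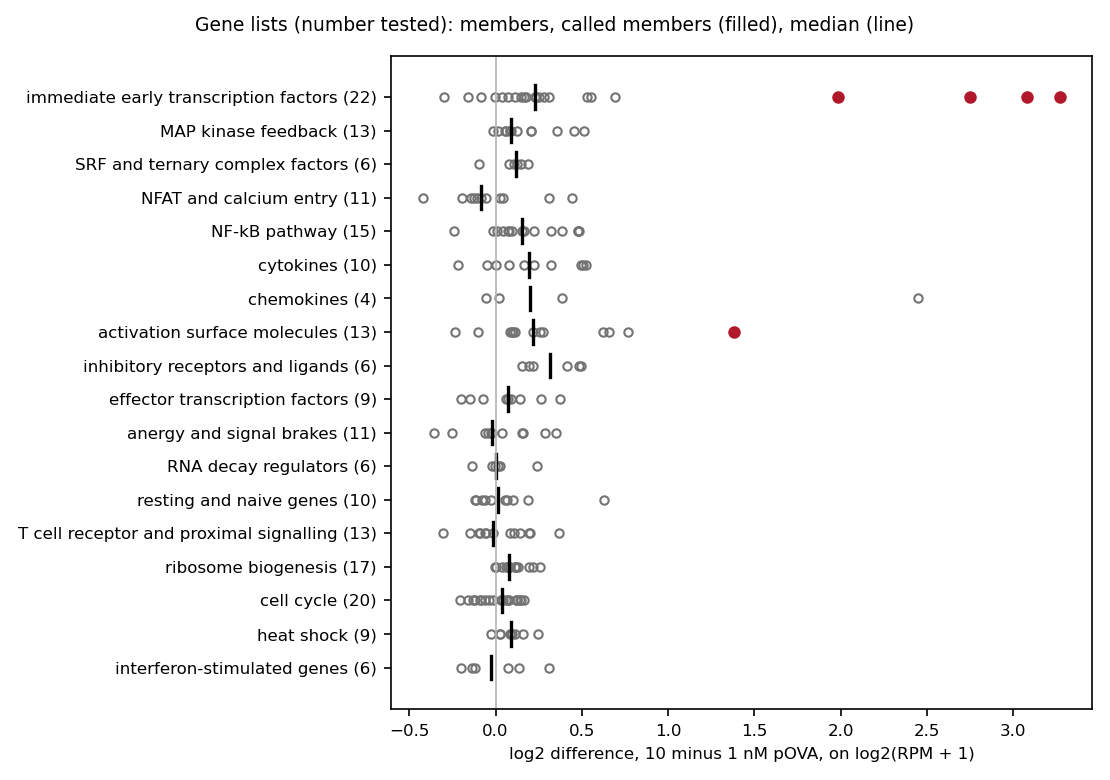
Log2 difference of 10 minus 1 nM for every tested member of 18 gene lists (x axis), 1 list per row with the number tested; filled points were called and the black line is the median. The called members stand in 2 rows, immediate early transcription factors (4) and activation surface molecules (1); the sixth called gene, Nab2, is in no list.

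Among genes lower at 10 nM there was no call by limma over the 26 libraries. The 8 named by the rule were led by mmu-mir-2134-4, with 7.21 and 9 RPM at 10 nM, against 18.3 and 23.3 RPM at 1 nM (log2 difference -1.26, adjusted p = 0.534), and Ptma, the gene of prothymosin alpha, a chromatin-associated acidic protein. Ptma had 1057 and 835 RPM at 10 nM, against 2136 and 2006 RPM at 1 nM (log2 difference -1.14, adjusted p = 0.534), but under engagement the order turned, with 1098 and 1323 RPM at 10 nM, against 821 and 863 RPM at 1 nM. The other 6 (Ube2h, Zfp617, Rpl10a-ps1, Prkra, Rnf215 and Mfsd6) had log2 differences of -1.69 to -0.35 and adjusted p = 1. Ptma and Rpl10a-ps1 have processed copies in the genome, so how their tags were assigned is uncertain. Other fits did call some of the 8: limma on the 4 libraries alone called Ptma (adjusted p = 0.0245) and Zfp617 (adjusted p = 0.0107), and DESeq2 called Ptma (adjusted p = 0.00285) and mmu-mir-2134-4 (adjusted p = 0.0316).

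Some genes with far larger differences than the 6 called were not called by limma over the 26 libraries, and they were picked out here after their values had been seen. Hist1h2bq, a histone gene, had 22.3 and 23.2 RPM at 10 nM, against 23.7 and 1097 RPM at 1 nM. Hist2h3c1, another, had 3.79 and 4.92 RPM at 10 nM, against 1338 and 6.17 RPM at 1 nM. In both genes 1 library of the pair held the excess, and both are members of a multigene family with near-identical copies. Rpsa-ps10, a ribosomal protein pseudogene, had 1065 and 924 RPM at 10 nM, against 11.1 and 12.98 RPM at 1 nM, and among the engaged libraries it had 12.4 and 10.8 RPM at 10 nM, against 10.7 and 674 RPM at 1 nM (log2 difference without engagement 6.25, adjusted p = 1). DESeq2 called Hist1h2bq (adjusted p = 0.00335) and Hist2h3c1 (adjusted p = 2.94e-04) lower, and limma on the 4 libraries alone called Rpsa-ps10 higher (adjusted p = 1.63e-08).

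Most of the response of the 6 genes lay above 10 nM. At 10 nM Egr1 stood at 56.7 ± 0.615 RPM, 14.5% of its level of 390 ± 47.3 RPM at 10000 nM (SD, n = 2 and n = 3). Egr2 stood at 4.18% of its level at 10000 nM, Egr3 at 5.13%, Nab2 at 11.7%, Nr4a1 at 5.61% and Tnfrsf9 at 4.35%. From 10 to 100 nM the mean level grew 4.92-fold for Egr1, 6.81-fold for Nab2, 9.99-fold for Egr3, 10.97-fold for Nr4a1, 13.6-fold for Egr2 and 17.0-fold for Tnfrsf9. Ccl1 had 0.549% of its level at 10000 nM at 10 nM and grew 72.7-fold at the next step.

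Some genes with smaller folds had come farther along their own range at 10 nM, and others had not. Of the rise between 1 and 10000 nM, Cd28 had covered 41.5% at 10 nM, Lef1 36.1%, Cd69 27.3%, Lcp2 24.4% and Samsn1 23.6%, against 13.2% for Egr1 and 4.07% for Egr2. The cytokine gene Tnf had covered 5.14% and Cd274 3.62%. These shares are descriptions of group means, with no test. Cd28, Lef1, Lcp2 and Samsn1 were named by the size or p of their 10 against 1 nM difference. That difference also enters the share, so the naming favours large shares. The share is unsteady for low genes: the B cell marker Ebf1, at 0.82 RPM at 10 nM and 0.71 RPM at 10000 nM, gave 132%. None of the 5 genes from Cd28 to Samsn1 was called at 10 nM by limma.

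**Figure D5:**
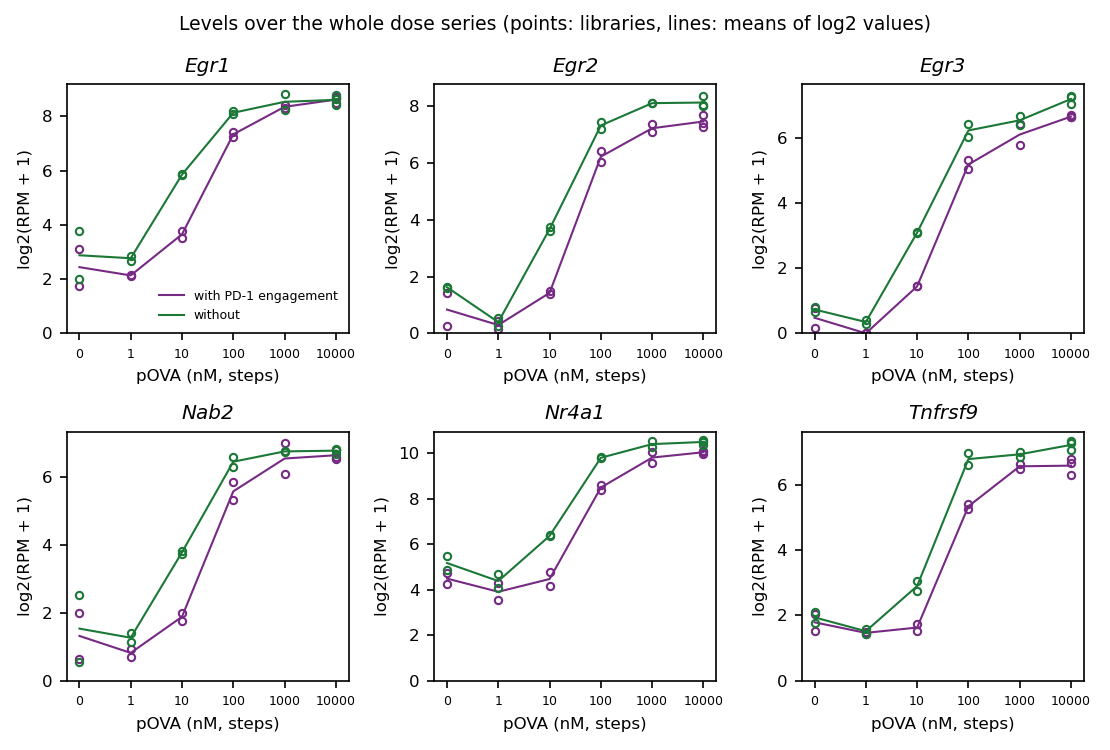
Levels of the 6 called genes as log2(RPM + 1) over the pOVA doses (x axis, steps in nM, not to scale), with PD-1 engagement (purple) and without (green); points are libraries and lines join the means. Without engagement every curve leaves its low end between 1 and 10 nM, with Egr1 at 56.3 and 57.1 RPM at 10 nM.

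A dose of 1 nM gave no calls against 0 nM. With limma 0 of 10094 genes were called (0%) and 1017 passed an unadjusted p under 0.05. The median log2 difference over all genes was -0.11 in RPM and 0.0041 after quantile normalization, so single differences here are to be read against that shift. In the same comparison edgeR called 0 genes and DESeq2 called 35, 9 higher and 26 lower. Egr2 was lower at 1 nM, with 0.44 and 0.20 RPM against 2.04 and 2.12 RPM at 0 nM (limma log2 difference -1.23, adjusted p = 0.438). DESeq2 called this difference of Egr2 (log2 difference -2.61, adjusted p = 0.00383). This comparison depended on the unstimulated library that stood apart: without replicate 1 at 0 nM, which leaves replicate 2 with its 601 RPM of B cell markers, 840 genes were called, and without replicate 2, 2 genes. Taking 0 and 1 nM together as the baseline for 10 nM left the 6 calls as they were.

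The dose step can also be read in genes chosen by a contrast of other groups, 10000 against 0 nM. That fit took its spread from all hybridoma libraries, those at 10 and 1 nM included. The choice is therefore not fully independent of the step. Of 234 genes called at least 2-fold higher at 10000 than at 0 nM, 99 (42.3%) had both libraries at 10 nM above both at 1 nM, against 12.9% of all genes, and 15 (6.41%) had the reverse, against 12.8%. Their median log2 difference was 0.14. Of 267 genes called at least 2-fold lower at 10000 nM, 53 (19.9%) had both libraries at 10 nM below both at 1 nM and 11 (4.12%) above. Besides the 6 genes none of these was called at 10 nM. All 6 called genes were among the 234, with log2 differences of 5.24 for Nab2 to 6.503 for Egr2 between 10000 and 0 nM.

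Under PD-1 engagement the same step called 1 gene. Egr3 had 1.72 and 1.73 RPM at 10 nM and was listed at 0 in both libraries at 1 nM, at least 9.10-fold higher against the floor of 3 tags per library (log2 difference 1.45, adjusted p = 0.00727). It was 1 of 10094 genes (0.00991%), 0 were lower, and 64 passed an unadjusted p under 0.05. The call rested on the full set of libraries: without any 1 of the 4 it was lost (adjusted p = 0.0620 to 0.0930), and over 13 alternatives the adjusted p ran from 3.82e-05 to 0.0930. Egr1 had 10.4 and 12.8 RPM at 10 nM, against 3.47 and 3.31 RPM at 1 nM, with no overlap, and a log2 difference of 1.51 that limma did not call over the 26 libraries (adjusted p = 1). It was called with the 4 libraries alone (adjusted p = 0.0472) and without the 0 nM libraries (adjusted p = 3.51e-04). For Egr2 the levels were 1.78 and 1.59 RPM at 10 nM, against 0.35 and 0.11 RPM at 1 nM (log2 difference 1.13, limma adjusted p = 0.985), called by DESeq2 (adjusted p = 0.00216) and without the 0 nM libraries (adjusted p = 0.0194). Nab2 had 3 and 2.39 RPM at 10 nM, against 0.90 and 0.63 RPM at 1 nM. The levels of Nr4a1 overlapped, with 26.3 and 17.0 RPM at 10 nM, against 18.4 and 10.6 RPM at 1 nM. Tnfrsf9 had 2.33 and 1.86 RPM at 10 nM, against 1.80 and 1.71 RPM at 1 nM.

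At 10 nM the engaged libraries held less of each of the 6 transcripts. Their mean level was 20.5% of that without engagement for Egr1, 14.4% for Egr2, 22.8% for Egr3, 21.2% for Nab2, 26.5% for Nr4a1 and 32.3% for Tnfrsf9. The engaged means were already lower at 1 nM. They were 3.39 against 5.82 RPM for Egr1, 0.23 against 0.32 RPM for Egr2 and 0 against 0.275 RPM for Egr3. For Nab2 they were 0.765 against 1.41 RPM, for Nr4a1 14.5 against 20.4 RPM and for Tnfrsf9 1.76 against 1.86 RPM. The summed run on chromosome 15 had 2.36 and 3.07 RPM at 10 nM with engagement, against 11.2 and 15.5 RPM at 10 nM without. Since the 6 genes were chosen by the step without engagement, these shares are descriptions.

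Without a term for pairs, the limma test of the difference between the engaged and the unengaged step called 0 of 10094 genes (0%), with 61 at an unadjusted p under 0.05. For Egr2 the engaged step was smaller by 2.14 on the log2 scale (SE 0.361, limma adjusted p = 0.112). The differences of the other 5, as engaged minus unengaged step, were -1.57 for Egr1 (SE 0.563), -1.45 for Nab2 (SE 0.632), -1.43 for Nr4a1 (SE 0.368), -1.31 for Egr3 (SE 0.281) and -1.22 for Tnfrsf9 (SE 0.269), with adjusted p of 0.793 to 1. Engaged and unengaged libraries of equal replicate number deviated together at every dose. At 1 nM the correlation (0.256) was no higher than some between unlike doses. A fit with these pairs as a replicate block within each dose, added after seeing the data, called 8 genes. Of these, 7 had a smaller and 1 a larger engaged step. All 6 genes were among the 7, with adjusted p of 6.66e-04 for Nr4a1, 0.00103 for Egr1, 0.00209 for Egr2, 0.0221 for Tnfrsf9, 0.0318 for Egr3 and 0.0429 for Nab2, and Obfc2a was the seventh (log2 difference -0.50, adjusted p = 0.0383). The eighth, with the larger engaged step, was Mknk2, the gene of a MAP kinase-interacting kinase (log2 difference 0.85, adjusted p = 0.0429), named here after its value had been seen. The test shares the unengaged libraries at 10 and 1 nM with the step that called the 6 genes, so it is not independent of their choice. Without the pairs, quantile normalization called Egr2 (adjusted p = 0.0137) and Tnfrsf9 (adjusted p = 0.0321), the fit without the 0 nM libraries called Egr2 (adjusted p = 0.00127) and Egr1 (adjusted p = 0.0121), and DESeq2 called Nr4a1 (adjusted p = 0.00305). Over 17 alternatives the highest adjusted p was 1 for each of the 6. For Egr3 the sign depended on the tool, since on whole tags the edgeR and DESeq2 estimates rest on the engaged libraries at 0, and neither of them called it. Over the 234 genes called at the top dose, the median of the engaged step was 0.023, and 20.5% had both engaged libraries at 10 nM above both at 1 nM, against 15.2% of all genes.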

How the data were processed

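The authors deposited RPM per CAGE tag cluster and library. Per the submitters' processing notes the build was mm9, with HISAT2 2.0.5 and BWA 0.7.12 named without their roles. Cluster calling and naming are not given in the sources used here. The hybridoma table held 18025 clusters, 4477 without a symbol and 356 with more than 1. The lowest maximum of a cluster over the libraries was 3.01 RPM, so low genes can be absent from it. Symbols of 16 genes had been turned into calendar dates. Whether deposited positions count from 0 or 1 is not stated.

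RPM were summed over clusters with a single symbol, giving 10098 genes. Each library's values were whole multiples of 1 step, and at least 99.98% per library came out as whole tags within 0.1 tag. Clusters held 91.0 to 92.3% of the recovered totals, and no 2 libraries of a group were copies.

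Levels, as log2 of RPM plus 1, were fitted with a trended limma model (version 3.58.1, R 4.3.3) that gave each of the 12 hybridoma groups its mean and let all 26 libraries share the spread, because pairs of libraries alone leave few degrees of freedom. A gene needed 1 RPM or more in 2 or more libraries (10094 genes passed). Tests were two-sided, with Benjamini-Hochberg adjustment over every gene tested. As alternatives, edgeR 4.0.16 (quasi-likelihood, TMM factors; 10 calls in the 10 against 1 nM comparison) and DESeq2 1.42.0 were run on the whole tags, besides other pseudocounts, filters, scalings and library sets. Same-numbered engaged and unengaged libraries of a dose deviated from their group means with correlations of 0.256 to 0.759, all above 0.1. In groups of 2 libraries both numbers give the same value by construction, so the 13 pairs are not 13 separate values. Same-numbered libraries of unlike doses reached 0.271 (1 nM without against 1000 nM with engagement), above the 0.256 at 1 nM. The numbers were taken to pair libraries within each dose, although at 1 nM the correlation alone does not set such pairs apart. This pairing comes from the data, not the labels. Motifs and figures used Python 3.11.15, numpy 2.4.6, pandas 2.3.3 and matplotlib 3.10.9.

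Genes were named by rule: all called genes; the 12 higher and 8 lower of smallest p with a group mean of at least 3 RPM, no overlap and no predicted gene model; the 3 members of a list that differed most; and 18 genes always named. Together these were 82 genes, and not all of them are printed. The comparison, the lists and the rule were chosen with earlier results of these data known. CD4 libraries were not analysed here, and sequence of Egr1 and Egr3 is not shown.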

Additional observations from a re-analysis of the deposited data

How the results depend on the processing

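The 6 calls at 10 against 1 nM were shared by the fits with another filter, no filter, quantile normalization, largest cluster per gene, 0 and 1 nM as baseline, edgeR, DESeq2, the 4 libraries alone, and without the 0 nM libraries (added after seeing the data). Totals past 1.5 times the 6 were 10 with edgeR, 17 with DESeq2 and 13 with the 4 libraries alone, and leaving out each library gave 4 to 8. Without 1 nM replicate 1, Gm15450, Gm3160 and Hist1h2bq joined as lower genes. Without 1 nM replicate 2, Ndufb4 joined as higher (log2 difference 3.72) and Hist2h3c1 as lower (log2 difference -7.97). Egr1, Egr2, Egr3 and Nr4a1 kept the call under all 16 alternatives, Nab2 lost it under 7 and Tnfrsf9 under 1. For clusters (8 called) leaving out libraries gave 6 to 9. Under engagement (1 called) DESeq2 and the 4 libraries alone gave 8 each, the fit without 0 nM libraries 3, and leaving out libraries 1 to 2. For the difference of the steps (0 called) quantile normalization gave 2, DESeq2 4, the fit without 0 nM libraries 2, the replicate block within each dose 8 (added after seeing the data), and leaving out libraries 0 to 2. For 1 against 0 nM (0 called by limma) DESeq2 gave 35, and leaving out libraries 1 to 840; edgeR and DESeq2 were added for these last 2 comparisons after seeing the data. The cause of these shifts was not tested.

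Same-numbered libraries at 10 and 1 nM deviated from their group means with a correlation of 0.168 (0.156 under engagement), from 2 pairs, so the numbers were not taken as pairing doses. With 1 replicate block over all doses the count of calls was 5 genes (without Nab2) and 8 clusters, 1 under engagement and 0 for the difference and for 1 against 0 nM. Over 82 named genes, 1492 gene values under alternatives gave 12 lost calls, 31 gained and 0 reversals of a call; 37 uncalled values in 27 genes changed sign.

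Depth limits the low genes: 3 tags are worth up to 0.224 RPM in the 4 libraries, where Egr2 and Egr3 at 1 nM had 3 to 6 tags.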
